A study of Mus musculus with 27 samples.

Results

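The genes described here write, maintain and remove DNA methylation: the maintenance methyltransferase Dnmt1 and its partner Uhrf1, the de novo methyltransferases Dnmt3a and Dnmt3b with their cofactor Dnmt3l, and the dioxygenases Tet1, Tet2 and Tet3. They were taken by symbol, as every probe set whose annotation held only that symbol, which gave 20 probe sets for all 8 genes out of 34945 probe sets for 18193 genes. In mouse cells Dnmt1, led to newly copied DNA by Uhrf1, restores methylation on the daughter strand, whereas Dnmt3a and Dnmt3b methylate sites that carried none. Dnmt3l has no catalytic activity of its own and stimulates both de novo enzymes. Tet enzymes oxidise 5-methylcytosine, a step towards its loss. Mouse pluripotent cells are known for high Dnmt3b, Dnmt3l and Tet1.

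Mouse cells of 3 lines were profiled on Affymetrix arrays. R1 cells are embryonic stem cells. H9, here called 3F, is an induced pluripotent line made with 3 transcription factors, and 19BL, here called 4F, was made with 4. Undifferentiated cells (day 0) grew on mitomycin-inactivated feeder cells in medium with LIF, a cytokine that holds mouse stem cells undifferentiated. Embryoid bodies, aggregates in which the cells differentiate spontaneously, were formed in 20% serum without LIF and sampled at day 5 and day 11. There were 3 biological replicates in each of 9 groups, or 27 arrays. Each way of making cells was represented by 1 line, so a difference between lines is a difference between these lines.

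Levels are log2 RMA signals of the brightest probe set of each gene, and a difference of 1 is 2-fold. The words rose, fell and differed are kept for genes that passed the limma fit over all genes, with an adjusted p below 0.05 and 2-fold or more, and ± after a change is the standard error of that fit. Arrays of compared groups often did not overlap: over all genes this held for 41.3% to 56.7% between days of a line. Between lines at the same day it held for 11.5% to 45.4%. The arrays measure bulk RNA, so fewer cells of a type and less RNA per cell cannot be told apart. The 12 pluripotency markers averaged 11.71 to 12.85 per array at day 0, 8.39 to 10.02 at day 5 in R1 and 3F against 10.93 to 11.58 in 4F, and 7.19 to 8.08 at day 11 in R1 and 3F against 9.53 to 10.27 in 4F. The 12 fibroblast and feeder markers averaged 9.69 to 11.79 at day 0, 5.98 to 7.45 at day 5 and 9.2 to 11.7 at day 11. The 3′ minus 5′ signal of the Actb and Gapdh controls, which grows as RNA is broken down, was 2.44 to 2.89 in 4F at day 11 and 1.01 to 2.16 in all other groups. The arrays farthest from their group means, at most 1 a group, were replicate 1 of 3F at day 11, replicate 1 of R1 at day 0 and replicate 3 of 4F at day 5. Without that limit the 3 farthest were all of 3F at day 11, with an SD from the group mean of 0.423, 0.321 and 0.344 for replicates 1, 2 and 3.

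The 4 genes that fell by day 11 in every line are shown with the 250 bases before a RefSeq transcription start (GRCm38.p6, 5′ to 3′ on the gene's strand). They are shown because these windows differ in their number of CpG dinucleotides, the sites where DNA methylation enzymes act. CpG dinucleotides are in capitals, and for a gene with several starts the window with the most CpG is given.
Dnmt3b chr2:153649199-153649448 (+ strand): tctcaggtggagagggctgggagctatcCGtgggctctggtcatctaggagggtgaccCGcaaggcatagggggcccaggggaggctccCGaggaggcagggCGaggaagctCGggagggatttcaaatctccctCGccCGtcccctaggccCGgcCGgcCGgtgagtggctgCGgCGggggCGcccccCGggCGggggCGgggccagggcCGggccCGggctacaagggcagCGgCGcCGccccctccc
Uhrf1 chr17:56304063-56304312 (+ strand): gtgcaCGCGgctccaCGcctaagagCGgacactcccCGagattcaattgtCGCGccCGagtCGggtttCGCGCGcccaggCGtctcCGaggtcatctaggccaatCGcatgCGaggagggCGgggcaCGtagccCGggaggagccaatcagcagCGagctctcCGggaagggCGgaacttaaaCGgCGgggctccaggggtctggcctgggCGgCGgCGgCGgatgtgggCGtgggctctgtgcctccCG
Tet1 chr10:62887325-62887574 (- strand): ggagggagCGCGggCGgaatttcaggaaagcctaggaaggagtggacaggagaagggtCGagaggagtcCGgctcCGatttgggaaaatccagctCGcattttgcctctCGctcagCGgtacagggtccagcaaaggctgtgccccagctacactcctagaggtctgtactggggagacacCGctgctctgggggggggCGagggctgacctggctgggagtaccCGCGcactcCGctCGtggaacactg
Dnmt3l chr10:78042037-78042286 (+ strand): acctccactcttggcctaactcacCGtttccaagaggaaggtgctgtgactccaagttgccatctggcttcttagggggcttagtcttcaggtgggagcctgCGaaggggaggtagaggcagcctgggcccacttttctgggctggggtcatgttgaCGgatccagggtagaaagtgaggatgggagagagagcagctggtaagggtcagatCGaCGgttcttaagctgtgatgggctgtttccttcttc
Over all 32851 such mouse windows the median was 6 CpG and the quartiles were 2 and 16. Uhrf1 held 30, Dnmt3b 21, Tet1 15 and Dnmt3l 5. The other starts of Dnmt3l held 4 and 3, so each of its windows lay below the median. Windows of the remaining genes held up to 51 (Tet2), 40 (Dnmt3a), 26 (Dnmt1) and 17 (Tet3).

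Letters of 4 known motifs were searched on both strands of the 15 windows of the 8 genes, and no match shared bases with another motif. The E2F letters TTTCGCGC, found in 0.256% of all windows, were in 1 window each of Dnmt1 and Uhrf1. The stretches around them, with the match in capitals, are shown because the 2 genes work in the same maintenance step.
Dnmt1 chr9:20952819-20952858 (- strand): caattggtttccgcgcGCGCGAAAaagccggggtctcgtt
Uhrf1 chr17:56304112-56304151 (+ strand): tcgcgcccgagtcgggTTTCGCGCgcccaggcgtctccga
The match began 219 bases before the start in Dnmt1, on the opposite strand, and 185 bases before it in Uhrf1. The GC box GGGCGG (32.7% of all windows) occurred in at least 1 window of all 8 genes. The letters CCAAT (33.8%) occurred in windows of Dnmt1, Uhrf1 and Tet3. The octamer ATTTGCAT, which POU factors such as Pou5f1 bind, was in none of the 15 windows and in 1.6% of all windows. A match is only a description of these letters.

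As the cells differentiated, the change among these genes was a fall of Dnmt3b, Dnmt3l, Uhrf1 and Tet1 in every line, while Dnmt1 and Tet3 did not pass in any comparison. By day 5 Dnmt3l and Tet1 had fallen in all 3 lines, and Tet2 in 3F and 4F. Thus 2 of 8 genes fell in R1 against 8.1% of all genes, 3 of 8 in 3F against 7.4%, and 3 of 8 in 4F against 4.82%. Between day 5 and day 11, 4 genes fell in each line, where 4.53% of all genes fell in R1, 10.8% in 3F and 9.16% in 4F. These were Dnmt3b, Dnmt3l and Uhrf1 in every line, joined by Tet1 in R1 and 3F and by Dnmt3a in 4F. From day 0 to day 11, 5 of 8 fell in R1 (12.2% of all genes), 4 in 3F (16%) and 5 in 4F (14.1%). With the 3′ minus 5′ signal as a covariate, 2 of 8 passed in 4F from day 0 to day 11 and 2 from day 5 to day 11. The share of all genes that passed in that fit is not given, so these 2 counts cannot be read as particular to the members. That signal was 2.44 to 2.89 in 4F at day 11 and at most 2.16 in the other groups, so covariate and group are hard to separate. The R1 and 4F counts include Dnmt3a, which was at 0.19 and -0.23 with the mean of its probe sets. No member rose by its brightest probe set in any of these 9 comparisons, which share arrays within a line. Over all genes 6.62%, 5.04% and 2.25% rose by day 5 in R1, 3F and 4F. From day 0 to day 11 these shares were 11.4%, 7.55% and 6.72%, so the lack of a rise among 8 genes is close to them. Tet2 did rise from day 5 to day 11 with the mean of its probe sets, by 1.72 in R1, 1.74 in 3F and 2.24 in 4F (limma adjusted p 0.00328, 0.00195 and 0.000186). The median change of the 8 genes to day 11 was -1.3 in R1, -1.44 in 3F and -1.95 in 4F against -0.04, 0.01 and -0.11 over all genes.

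**Figure D1:**
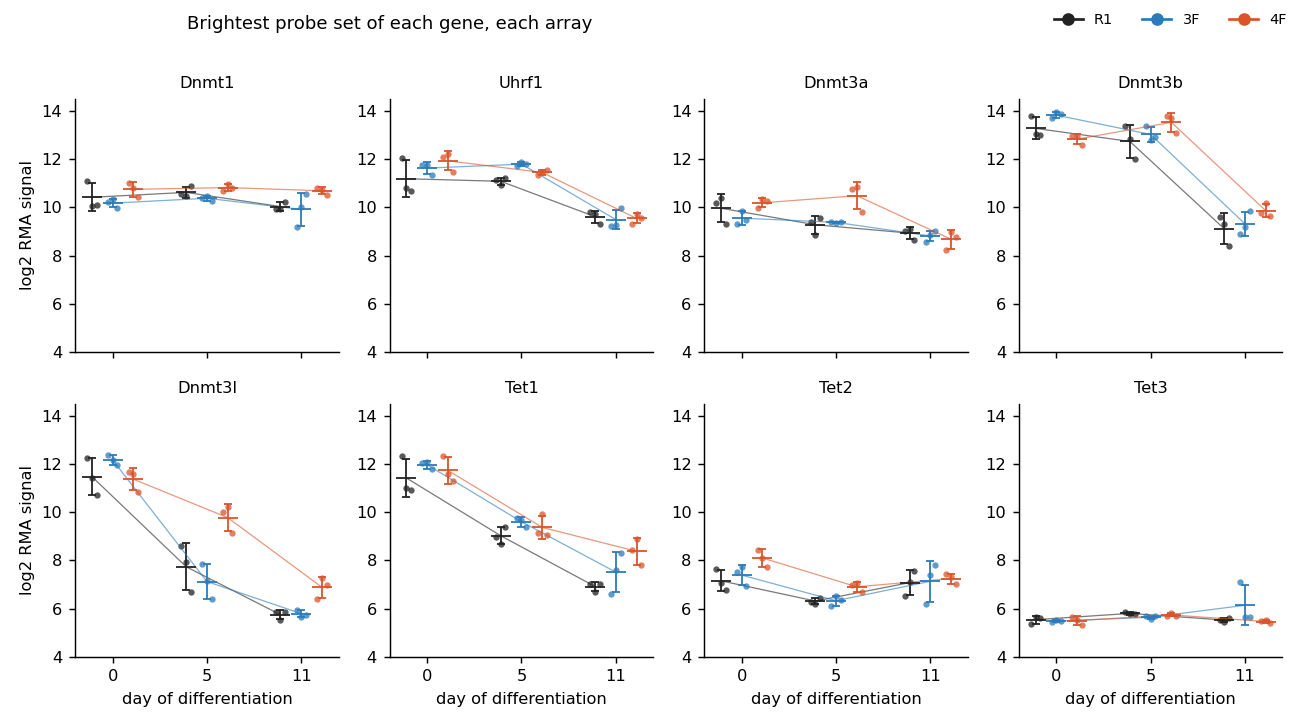
Log2 RMA signal of the brightest probe set of each of the 8 genes in each array, by day of differentiation. Points are arrays, horizontal bars are means of 3 and whiskers are 1 SD; lines join the means of R1 (black), 3F (blue) and 4F (orange). Dnmt3b had means of 12.73 to 13.83 at day 0 and day 5 and was at 9.11 to 9.87 at day 11, while Dnmt3l and Tet1 were already lower at day 5.

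Among the maintenance genes, Dnmt1 passed in no comparison. By its brightest probe set its group means ran from 10.82 ± 0.16 in 4F at day 5 to 9.92 ± 0.68 in 3F at day 11 (SD, n = 3), a span of 0.91. In that order each group overlapped the next, so neighbours could not be separated. Single arrays reached from 9.19, in replicate 1 of 3F at day 11, to 11.09, in replicate 1 of R1 at day 0, and those are among the arrays farthest from their groups. Changes from day 0 to day 11 were -0.39 ± 0.26 in R1, -0.26 ± 0.26 in 3F and -0.06 ± 0.26 in 4F, with 95% intervals of -0.94 to 0.15, -0.81 to 0.28 and -0.6 to 0.49. By the brightest probe set the interval of each line thus excluded a 2-fold fall. Over these days probe set 1422946_a_at went from means of 10.01 to 9.42 in R1, 10.46 to 9.75 in 3F and 10.52 to 9.66 in 4F, and no interval is given for it. The other probe sets of Dnmt1 also passed in none of the comparisons. Probe set 1422946_a_at was nonetheless lower at day 11 than at day 5 in each line with no overlap of arrays, at means of 9.42 against 10.16 in R1, 9.75 against 10.7 in 3F and 9.66 against 10.34 in 4F. Between these days 43.2%, 41.3% and 53.4% of all genes did not overlap. For 1422946_a_at no change passed. Its changes of -0.74, -0.95 and -0.68 (limma over all probe sets, adjusted p 0.0687, 0.0125 and 0.0665) were under 2-fold.

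Uhrf1, which recognises hemimethylated CpG and recruits Dnmt1, fell late in every line. At day 0 its 3 replicates gave 12.07, 10.81 and 10.69 in R1, 11.78, 11.77 and 11.34 in 3F and 12.1, 12.22 and 11.48 in 4F. At day 5 they gave 11.14, 10.91 and 11.2 in R1, 11.72, 11.88 and 11.79 in 3F and 11.33, 11.45 and 11.57 in 4F. At day 11 they gave 9.81, 9.71 and 9.33 in R1, 9.23, 9.29 and 9.96 in 3F and 9.32, 9.73 and 9.58 in 4F. All day 11 arrays lay below all arrays of the earlier days, and the 3 lines overlapped each other at day 11. Uhrf1 fell between day 5 and day 11 by 1.47 on the log2 scale in R1, by 2.3 in 3F and by 1.91 in 4F (limma adjusted p 0.000253, 6.44e-07 and 9.27e-06). From day 0 to day 11 it fell by 1.58 ± 0.27 in R1, 2.14 ± 0.27 in 3F and 2.39 ± 0.27 in 4F (adjusted p 4.27e-05, 7.69e-07 and 2.36e-07). With the 3′ minus 5′ signal as a covariate the 4F change to day 11 was -1.13 with an adjusted p of 0.125. By day 5 the changes were -0.11, 0.17 and -0.48, and none passed.

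Dnmt3b, the main de novo enzyme of the early embryo, fell steeply between day 5 and day 11. In the undifferentiated cells its replicates gave 13.8, 13.05 and 12.99 in R1, 13.69, 13.94 and 13.86 in 3F and 12.95, 12.96 and 12.59 in 4F. In day 5 bodies they gave 13.37, 12.83 and 12.01 in R1, 13.37, 12.8 and 12.91 in 3F and 13.78, 13.73 and 13.08 in 4F. In day 11 bodies they gave 9.62, 9.32 and 8.4 in R1, 8.89, 9.19 and 9.87 in 3F and 9.77, 10.17 and 9.65 in 4F. The 9 day 11 arrays lay below the other 18, with a gap of 2.87 between the nearest group means, and every pair of neighbouring groups on either side of that gap overlapped. Dnmt3b fell between day 5 and day 11 by 3.62 ± 0.33 in R1, 3.71 ± 0.33 in 3F and 3.67 ± 0.33 in 4F, which is 12.3-fold, 13.1-fold and 12.7-fold (limma adjusted p 3.5e-08, 1.6e-08 and 4.81e-08). From day 0 the fall was 4.17 in R1, 4.51 in 3F and 2.97 in 4F (adjusted p 1.42e-09, 3.79e-10 and 1.79e-07). These falls passed in all 20 alternatives run for each comparison.

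Before that, Dnmt3b moved less. By day 5 it was at -0.54 ± 0.33 in R1, -0.8 ± 0.33 in 3F and 0.7 ± 0.33 in 4F (limma adjusted p 0.222, 0.0717 and 0.14), so no change passed. In 4F all 3 day 5 arrays lay above all 3 day 0 arrays, and in 3F all 3 lay below them. Such a lack of overlap was common, at 46.6% of all genes in 4F and 56.7% in 3F between these days. With the mean of the probe sets the 3F change was -1.35 and passed (adjusted p = 0.00505). After cyclic loess or quantile normalization the 4F rise did pass, at 1.05 and 1.18. The change to day 5 was 1.5 ± 0.46 higher in 4F than in 3F (adjusted p = 0.0743). The change to day 11 was 1.54 ± 0.46 higher in 4F than in 3F (adjusted p = 0.0376), but this call was lost on leaving out any 1 of 10 of the 12 arrays, with values of 1.33 to 1.82. The other probe set, 1418351_a_at, fell by 1.91 ± 0.39 by day 5 in 3F (adjusted p = 0.000768), was higher in 4F than in 3F at day 5 by 1.29 ± 0.39 (adjusted p = 0.0296), and differed in its change to day 5 between 4F and 3F by 2.36 ± 0.55 (adjusted p = 0.0205). Over the same days Fgf5, a growth factor of the post-implantation epiblast, rose by 4.04 ± 0.67 by day 5 in 4F and was at -0.2 ± 0.67 in R1 and -1 ± 0.67 in 3F.

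Dnmt3l fell more than any other of the 8 genes in each line from day 0 to day 11, and it separated 4F from the other lines at day 5. Its day 0 replicates gave 12.27, 11.44 and 10.73 in R1, 12.37, 12.18 and 11.96 in 3F and 11.68, 11.59 and 10.84 in 4F. Its day 5 replicates gave 8.58, 7.95 and 6.68 in R1, 7.86, 7.13 and 6.38 in 3F and 9.99, 10.2 and 9.14 in 4F. Its day 11 replicates gave 5.85, 5.53 and 5.86 in R1, 5.96, 5.66 and 5.75 in 3F and 6.4, 7.26 and 6.99 in 4F. At day 5 the lowest 4F array lay above the highest array of the other lines, and the same held at day 11. Over all genes 35% did not overlap in 4F against R1 and 45.4% in 4F against 3F at day 5. At day 11 these shares were 38.9% and 29.6%. In the order of the 9 groups, 4F at day 5 stood alone, overlapping neither 4F at day 0 above it nor R1 at day 5 below it. At day 11 R1 and 3F were close to the dim end of the array, whose 40th percentile over all values was 5.37.

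By day 5 Dnmt3l had fallen by 3.74 ± 0.43 in R1 and 5.05 ± 0.43 in 3F, which is 13.4-fold and 33.1-fold, and by 1.59 ± 0.43, or 3.01-fold, in 4F (limma adjusted p 6.67e-07, 8.03e-09 and 0.00909). Without replicate 3 of 4F at day 5, which is among the arrays farthest from their groups, the 4F change was -1.27 with an adjusted p of 0.0618. From day 0 to day 11 it fell by 5.73 in R1, 6.38 in 3F and 4.49 in 4F (adjusted p 7.67e-10, 1.4e-10 and 2.35e-08), in all 20 alternatives of each. Between day 5 and day 11 the fall was 1.99 in R1, 1.33 in 3F and 2.89 in 4F (adjusted p 0.00104, 0.0159 and 1.4e-05). The 3F call was lost without replicate 1 of day 5, at -0.96 with an adjusted p of 0.114.

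At day 5 Dnmt3l was higher in 4F than in R1 by 2.04 ± 0.43, or 4.11-fold, and higher than in 3F by 2.66 ± 0.43, or 6.3-fold (adjusted p 0.00243 and 0.000134). Both differences passed in all 20 alternatives run for each. The fall to day 5 was itself smaller in 4F than in 3F, by 3.46 ± 0.6 (adjusted p = 0.00168), which passed in all 26 alternatives, and smaller than in R1 by 2.15 ± 0.6 (adjusted p = 0.0425). The difference from R1 was lost on leaving out single arrays, for instance without replicate 3 of R1 at day 5, at 1.62 with an adjusted p of 0.147. At day 11 Dnmt3l was 1.14 ± 0.43 above R1 and 1.09 ± 0.43 above 3F in 4F (adjusted p 0.0542 and 0.055), which did not pass. The call depended on the setting: both passed with dim genes left out (0.0449 and 0.0472) and with the replicate block (0.016 and 0.0177), that from R1 after cyclic loess (1.27, adjusted p = 0.0286) and that from 3F after quantile normalization (1.07, adjusted p = 0.0434). Beside this, 9 of the 12 pluripotency markers were higher in 4F than in R1 and 9 were higher than in 3F at day 5. Over all genes 2.31% and 2.91% were higher. The part of these markers in the Dnmt3l difference was not tested.

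Dnmt3a was read by 5 probe sets that moved in opposite directions. The brightest, 1423064_at, gave 10.18, 10.4 and 9.32 in R1, 9.33, 9.87 and 9.46 in 3F and 9.98, 10.34 and 10.25 in 4F at day 0. It gave 9.41, 8.87 and 9.56 in R1, 9.4, 9.36 and 9.38 in 3F and 10.77, 10.86 and 9.83 in 4F at day 5. It gave 9.02, 9.12 and 8.66 in R1, 8.57, 8.85 and 9.02 in 3F and 8.25, 9 and 8.78 in 4F at day 11. At day 5 all 4F arrays lay above those of the other lines, and at day 11 the lines overlapped. By this probe set Dnmt3a was 1.2 ± 0.27 higher in 4F than in R1 and 1.11 ± 0.27 higher than in 3F at day 5 (adjusted p 0.00481 and 0.00651), and it fell from day 0 to day 11 by 1.51 ± 0.27 in 4F and 1.03 ± 0.27 in R1 (adjusted p 9.05e-05 and 0.00341). The change in 3F was -0.74 ± 0.27 (adjusted p = 0.0302), under 2-fold. The R1 fall was lost in 8 of 20 alternatives, among them leaving out replicate 2 of day 0, at -0.81. With the RNA covariate the 4F change was -0.74 with an adjusted p of 0.403. At day 5 the difference from R1 went under 2-fold without replicate 2 of R1, and that from 3F was lost without replicate 1 or replicate 2 of 4F, at 0.96 and 0.92.

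Probe sets 1460324_at and 1423063_at of Dnmt3a rose where the brightest one fell. The first of these gave 7.37, 6.87 and 6.71 in R1, 6.75, 6.85 and 6.84 in 3F and 6.9, 6.44 and 6.01 in 4F at day 0. It gave 9.64, 9.37 and 10.5 in R1, 9.11, 9.17 and 10.65 in 3F and 8.62, 8.97 and 9.43 in 4F at day 11. Every day 11 array lay above every day 0 array. From day 0 to day 11 probe set 1460324_at rose by 2.86 ± 0.34 in R1, 2.83 ± 0.34 in 3F and 2.56 ± 0.34 in 4F (limma over all probe sets, adjusted p 5.46e-07, 4.95e-07 and 2.28e-06). Probe set 1423063_at rose by 1.51, 2.35 and 1.23 in the same order. Probe set 1423066_at fell by 1.91, 1.84 and 2.58, and 1423065_at was at -0.45, -0.07 and -0.82 with no call. Thus 2 of the 5 probe sets rose in every line, where 9.15% of all probe sets rose in R1, 6.04% in 3F and 7.56% in 4F. With the mean of the 5 probe sets the R1 change to day 11 was 0.19 in place of -1.03, so no direction can be given for the Dnmt3a gene as a whole. The higher day 5 level in 4F was not seen with the rising probe sets, which were at -0.41 and -0.06 against R1 and at -0.32 and 0.12 against 3F. It was seen in the day 5 means of 1423066_at, at 9.09 in 4F, 7.58 in R1 and 7.64 in 3F. The means of 1423065_at were 8.32 in 4F, 7.38 in R1 and 7.18 in 3F. No test is given for these day 5 means. All 5 probe sets are annotated to the same target record, and which transcripts each one reads was not tested.

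**Figure D2:**
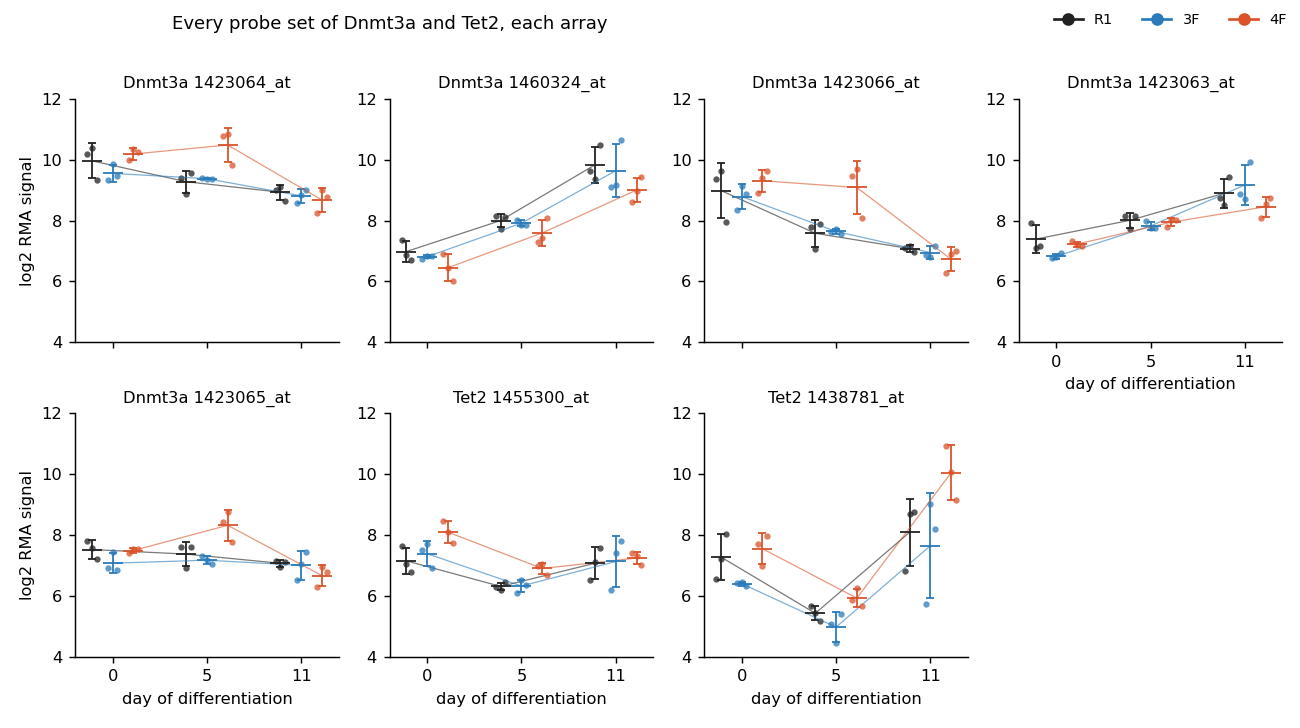
Log2 RMA signal of each of the 5 Dnmt3a and 2 Tet2 probe sets in each array, by day of differentiation. Points are arrays, horizontal bars are means of 3 and whiskers are 1 SD, for R1 (black), 3F (blue) and 4F (orange). Dnmt3a probe sets 1460324_at and 1423063_at were highest at day 11, the other Dnmt3a probe sets were not, and Tet2 probe set 1438781_at was highest in 4F at day 11.

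Tet1, the main Tet enzyme of pluripotent cells, fell early and in every line. At day 0 its arrays gave 12.34, 11 and 10.92 in R1, 12.03, 12.09 and 11.79 in 3F and 12.34, 11.58 and 11.28 in 4F. At day 5 its arrays gave 8.99, 8.68 and 9.4 in R1, 9.77, 9.67 and 9.37 in 3F and 9.12, 9.93 and 9.06 in 4F. At day 11 its arrays gave 7.02, 6.7 and 7.03 in R1, 6.62, 7.62 and 8.3 in 3F and 8.44, 8.89 and 7.8 in 4F. The lines overlapped at day 0 and at day 5, and at day 11 all 4F arrays lay above all R1 arrays but not above all 3F arrays. Between day 0 and day 5 Tet1 fell by 2.4 ± 0.39 in R1, 2.37 ± 0.39 in 3F and 2.36 ± 0.39 in 4F, which is 5.28-fold, 5.16-fold and 5.14-fold (limma adjusted p 4.53e-05, 5.94e-05 and 0.000152). The differences between the lines in that change were 0.01 to 0.04, and their 95% intervals reached from -1.13 to 1.18, so a difference of 2-fold lay within them. By day 11 Tet1 had fallen by 4.5 in R1, 4.45 in 3F and 3.36 in 4F (adjusted p 5.06e-09, 4.14e-09 and 3.29e-07). With the RNA covariate the 4F change was -1.87 with an adjusted p of 0.0912.

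From day 5 to day 11 Tet1 fell by 2.1 in R1 and 2.09 in 3F (adjusted p 0.000267 and 0.000166; under 2-fold with the mean of the probe sets, at -0.97 and -0.77), whereas the 4F change of -1 ± 0.39 (adjusted p = 0.047) was just under 2-fold. At day 11 Tet1 was 1.46 ± 0.39 higher in 4F than in R1, or 2.75-fold (adjusted p = 0.00804), and 0.86 ± 0.39 above 3F (adjusted p = 0.0963). The difference from R1 was lost without replicate 2 of 4F at day 11 (1.2, adjusted p = 0.0566) and with the mean of the probe sets (0.59, adjusted p = 0.0545). The change to day 11 in 4F was 1.15 ± 0.55 from that in R1 and 1.1 ± 0.55 from that in 3F (adjusted p 0.173 and 0.215), which did not pass. Of the other Tet1 probe sets, 1429448_s_at also fell by 1.16 ± 0.32 from day 5 to day 11 in 4F (adjusted p = 0.00588) and was at 0.77 ± 0.32 in 4F against R1 at day 11. Probe set 1419896_at was at -0.5 in R1 and 0.12 in 3F from day 5 to day 11, and 1419897_at stayed at group means of 4.5 to 4.69, under the dim level of 5.37, in all 9 groups.

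Tet2, another Tet enzyme of pluripotent cells, was lower at day 5 in 3F and 4F, and its probe sets moved differently. The brightest probe set, 1455300_at, gave 7.63, 7.05 and 6.78 in R1, 7.52, 7.72 and 6.93 in 3F and 8.45, 8.11 and 7.74 in 4F at day 0. It gave 6.29, 6.2 and 6.45 in R1, 6.1, 6.52 and 6.36 in 3F and 6.98, 7.05 and 6.68 in 4F at day 5. It gave 6.54, 7.11 and 7.58 in R1, 6.18, 7.4 and 7.82 in 3F and 7.42, 7.3 and 7.02 in 4F at day 11. Within each line the day 5 arrays lay below the day 0 arrays. Between these days 45%, 56.7% and 46.6% of all genes did not overlap in R1, 3F and 4F. Tet2 fell by day 5 by 1.06 ± 0.32 in 3F and 1.2 ± 0.32 in 4F (limma adjusted p 0.0136 and 0.00905), and the R1 change of -0.84 ± 0.32 (adjusted p = 0.0447) was under 2-fold. The 3F call was lost without replicate 1 or 2 of day 0 or replicate 1 of day 5, and the 4F call without replicate 1 of day 0 (-1.03, adjusted p = 0.051).

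Tet2 probe set 1438781_at gave 6.56, 7.23 and 8.05 in R1, 6.41, 6.47 and 6.33 in 3F and 7.7, 6.99 and 7.97 in 4F at day 0. At day 5 it read 5.66, 5.44 and 5.19 in R1, 5.07, 4.45 and 5.41 in 3F and 5.87, 6.25 and 5.66 in 4F. At day 11 it read 6.82, 8.7 and 8.77 in R1, 5.72, 9.03 and 8.2 in 3F and 10.94, 10.07 and 9.15 in 4F. The 4F arrays of day 11 lay above all others of that probe set, and replicate 1 of 3F was far below its group. Over all genes the 3 arrays of 3F at day 11 were the farthest from their group mean, replicate 1 most. From day 5 to day 11 this probe set rose by 2.67 ± 0.62 in R1, 2.67 ± 0.62 in 3F and 4.13 ± 0.62 in 4F (limma over all probe sets, adjusted p 0.00272, 0.0016 and 1.88e-05), against 0.76, 0.81 and 0.35 for the brightest one. At day 11 it was 1.96 ± 0.62 higher in 4F than in R1 and 2.4 ± 0.62 higher than in 3F (adjusted p 0.0231 and 0.00541). It also fell by day 5 in R1, by 1.85 ± 0.62 (adjusted p = 0.0257), and was at -1.43 in 3F and -1.63 in 4F. The 4F day 11 arrays had the highest 3′ minus 5′ control signal, and its part in this difference was not tested by probe set.

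Tet3 was at the low end of the array throughout. Its group means lay between 5.46 and 5.8 in 8 of the 9 groups, and 3F at day 11 was at 6.14 ± 0.83, where replicate 1 alone gave 7.1. No comparison passed with limma. The widest differences between groups were 0.66 ± 0.23 from day 0 to day 11 in 3F (adjusted p = 0.0219) and -0.67 ± 0.23 in 4F against 3F at day 11 (adjusted p = 0.0302), both under 2-fold.

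**Figure D3:**
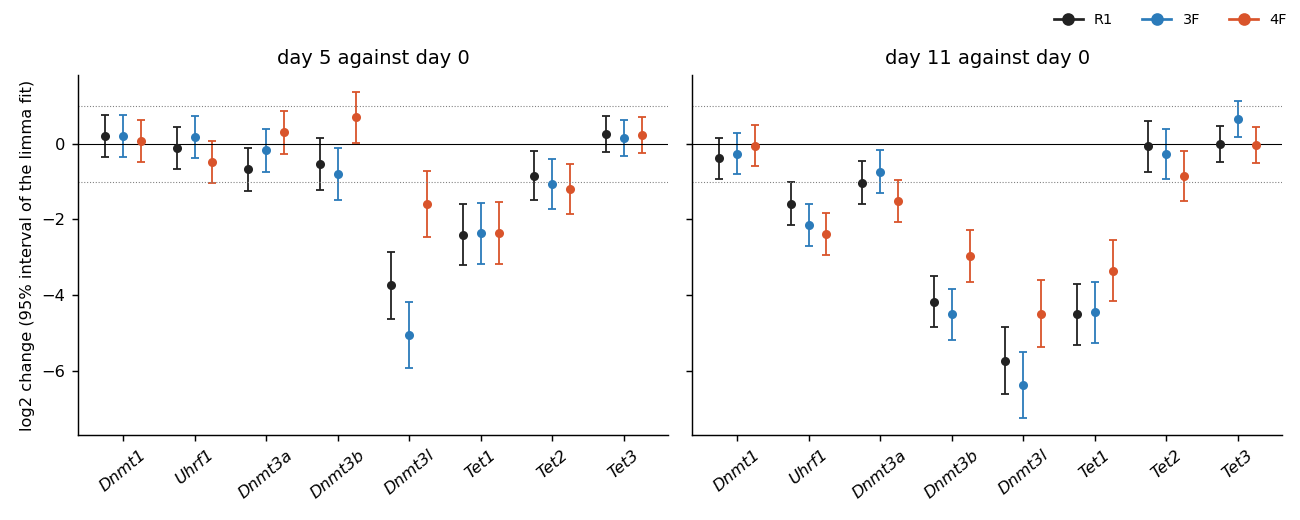
Log2 change of each gene from day 0 to day 5 (left) and from day 0 to day 11 (right) in R1 (black), 3F (blue) and 4F (orange). Points are estimates of the limma fit, whiskers are 95% intervals, and dotted lines mark a 2-fold change. At day 5 only Dnmt3l, Tet1 and Tet2 passed in any line, and Dnmt3l shows the widest separation of the lines; at day 11 Dnmt3b, Dnmt3l, Uhrf1 and Tet1 lay beyond a 2-fold fall in every line.

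Between the lines, none of the 8 genes passed before differentiation in the main limma fit, and in each difference that passed later 4F was the higher line. At day 0 none of the 8 genes passed with limma in 3F against R1 (3.09% of all genes differed), 4F against R1 (1.12%) or 4F against 3F (1.98%), and 0, 2 and 4 of them had an unadjusted p under 0.05. The widest of these differences was that of Dnmt3b in 4F against 3F, at -1 ± 0.33 with a 95% interval of -1.68 to -0.32 (limma adjusted p = 0.0918). The lack of calls at day 0 depended on the setting. With array weights 2 members passed in 4F against R1. Without the 3 arrays farthest from their groups 2 passed in 4F against R1 and 1 in 3F against R1. The shares of all genes under these settings are not given. Among the values of the 8 genes in all comparisons, array weights added 14 calls and lost 1. Leaving out those arrays added 12 and lost 2. At day 5 none passed in 3F against R1 (0.374% of all genes differed, and 1 member had an unadjusted p under 0.05). Dnmt3a and Dnmt3l were higher in 4F than in R1, 2 of 8 where 2.31% of all genes were higher, and higher than in 3F, 2 of 8 where 2.91% were. The Dnmt3a calls were made with its brightest probe set. With the mean of its probe sets they were lost, at 0.64 against R1 and 0.7 against 3F (limma adjusted p 0.0767 and 0.0411). Probe sets 1423066_at and 1423065_at also had higher day 5 means in 4F, while the difference was not seen with 1460324_at and 1423063_at. At day 11 only Tet1 was higher in 4F than in R1 (2.39% of all genes were higher). None passed in 3F against R1 (1.02% differed) or 4F against 3F (10% differed), with 1 and 4 at an unadjusted p under 0.05. The comparisons of 4F share the 4F arrays. In the changes to day 5, Dnmt3l was the only member that differed in 4F against R1 (1.58% of all genes had the higher change) and in 4F against 3F (1.97%), and none differed in 3F against R1 (0.374% differed, 1 member at an unadjusted p under 0.05). In the changes to day 11, Dnmt3b and Dnmt3l differed in 4F against 3F (3.41% had the higher change). None passed in 3F against R1 (1.5%) or in 4F against R1 (9.5%), with 0 and 3 at an unadjusted p under 0.05. For Dnmt3l the change to day 11 was 1.9 ± 0.6 higher in 4F than in 3F (adjusted p = 0.0482), and leaving out any 1 of 11 of the 12 arrays ended the call, with values of 1.63 to 2.14.

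**Figure D4:**
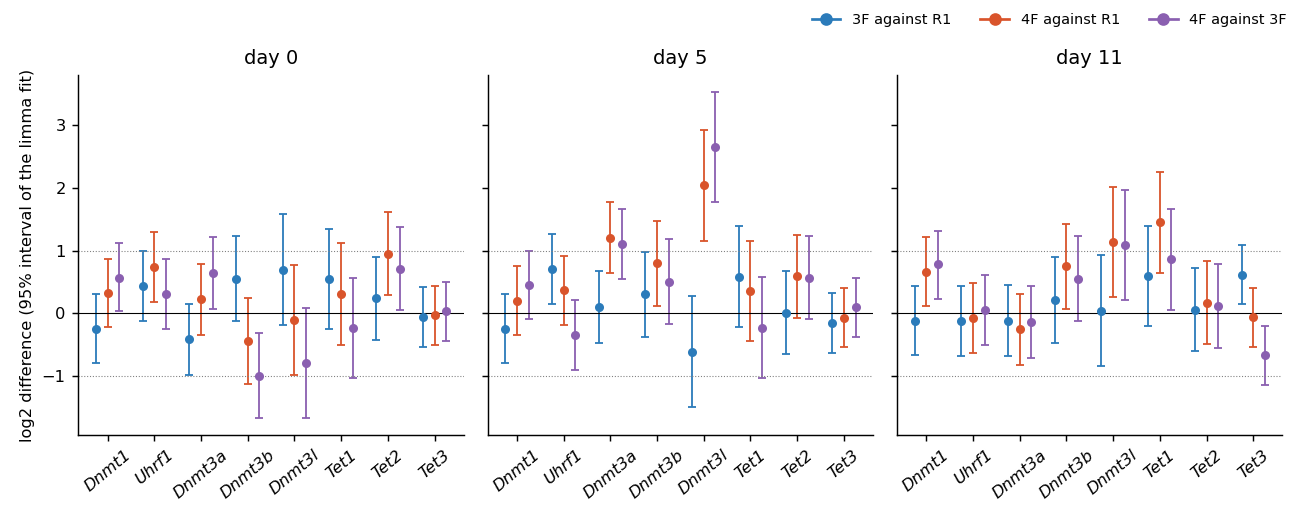
Log2 difference of each gene between lines at day 0, day 5 and day 11, for 3F against R1 (blue), 4F against R1 (orange) and 4F against 3F (purple). Points are estimates of the limma fit, whiskers are 95% intervals and dotted lines mark a 2-fold difference. Dnmt3l at day 5 stands highest, at 2.04 against R1 and 2.66 against 3F, while 3F against R1 passed for none of the genes at any day.

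The partners of these enzymes, in lists chosen with earlier results known, were set beside them. Of 9 partners of maintenance methylation, 6 fell from day 0 to day 11 in R1, 7 in 3F and 7 in 4F (12.2%, 16% and 14.1% of all genes), with medians of -1.62, -2.09 and -1.63. Hells, a chromatin remodeller needed for normal methylation, fell by 2.75 ± 0.25, 3.51 ± 0.25 and 2.07 ± 0.25 (adjusted p 8.92e-09, 2.6e-10 and 5.04e-07), and its activator Cdca7 by 2.25, 3.27 and 2.47. Dppa3, which keeps Uhrf1 off chromatin in mouse oocytes, fell by 2.72, 3.41 and 2.29, and it was already 1.65 ± 0.36 lower in 4F than in R1 at day 0 (adjusted p = 0.0123). Pcna, the replication clamp, fell by 1.76, 2.09 and 2.38. Hells was 1.04 ± 0.25 higher in 4F than in R1 at day 5 and 1.56 ± 0.25 higher than in 3F at day 11 (adjusted p 0.00667 and 8.26e-05). Genes of S phase and mitosis were also lower: of 13 measured, 10, 11 and 11 fell by day 11 (12.2%, 16% and 14.1% of all genes), with medians of -1.17, -1.83 and -1.54, led by Mcm3 at -1.79, -2.59 and -2.52. By day 5 these lists had moved less, with 3, 2 and 2 of the 9 partners and 1, 0 and 0 of the 13 cell cycle genes lower. Over all genes 8.1%, 7.4% and 4.82% fell by day 5.

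Genes that act after the Tet enzymes, in the excision and repair of oxidised cytosine, mostly did not pass. Of 11 measured, 3, 4 and 4 fell by day 11 in R1, 3F and 4F, with medians of -0.59, -0.57 and -0.52, where 12.2%, 16% and 14.1% of all genes fell. Gadd45a, a stress-induced gene linked to repair-based demethylation, fell by 2.93, 2.09 and 1.96, and the end-break sensor Parp1 by 1.12, 1.75 and 1.55. Tdg, the glycosylase that removes oxidised cytosine, is not analysed here. Readers of methylated CpG moved both ways: of 6 measured, 3 rose in R1, where 11.4% of all genes rose, 2 in 3F (7.55%) and 3 in 4F (6.72%), while 0, 2 and 1 fell. Mbd1 rose by 1.72, 1.25 and 2.08, Zbtb4 by 2.45, 1.06 and 1.83, and Mbd2 by 1.55 in R1 and 1.51 in 4F, while in 3F it was at 0.81 ± 0.2. Mbd3, the member of the Mi-2/NuRD complex that binds methylated CpG poorly, fell by 1.36 in 3F and 1.75 in 4F, and its R1 change of -1 ± 0.17 (adjusted p = 5.07e-05) was just under 2-fold. Zbtb38 fell by 1.59 ± 0.31 in 3F (adjusted p = 0.000158).

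Of 14 genes that direct silencing to particular loci, 4 fell in R1, 6 in 3F and 6 in 4F by day 11 (12.2%, 16% and 14.1% of all genes), with medians of -0.37, -0.84 and -0.86. Prdm14, a repressor of de novo methylation genes in mouse embryonic stem cells, fell by 2.7, 3.26 and 2.8, and L3mbtl2 by 2.58, 3.04 and 2.42. Zfp57, which protects imprinted methylation, was at -0.34 ± 0.19, -0.1 ± 0.19 and -0.37 ± 0.19 and passed in none of the lines. Of 10 genes that supply the methyl donor or Tet cofactors, 5 fell in each line (12.2%, 16% and 14.1% of all genes) and 1 rose in 3F (7.55% of all genes), with medians of -0.99, -1.13 and -1.24. Shmt1, of the one-carbon cycle, fell by 2.97, 3.6 and 3.06, and Ahcy, which clears S-adenosylhomocysteine, by 1.39, 2.15 and 2.22.

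Germ line genes whose promoters are known targets of DNA methylation were set beside these falls, and none rose by day 11. Of 14 measured, 7 fell by day 11 in R1, 7 in 3F and 6 in 4F, with medians of -1.77, -1.39 and -0.76. Over all genes 12.2%, 16% and 14.1% fell and 11.4%, 7.55% and 6.72% rose. Mael, a piRNA pathway gene, fell by 4.48 ± 0.33 in R1 and 3.99 ± 0.33 in 3F (adjusted p 6.56e-10 and 1.75e-09) and was at -0.64 ± 0.33 in 4F (adjusted p = 0.122). At day 5 Mael was 4.04 ± 0.33 higher in 4F than in R1 and 5.29 ± 0.33 higher than in 3F (adjusted p 2e-07 and 6.15e-10). Ddx4, a germ cell RNA helicase, was 2.79 and 3.9 higher there. In all, 4 of the 14 were higher in 4F than in R1 and 6 were higher than in 3F at day 5 (2.31% and 2.91% of all genes), and 5 and 5 at day 11 (2.39% and 5.12%). Methylation itself was not measured in these arrays.

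Pluripotency and epiblast markers give the cell state beside these levels. Of 12 pluripotency markers, 11 fell by day 11 in R1, 11 in 3F and 12 in 4F (12.2%, 16% and 14.1% of all genes), with medians of -4.91, -5.35 and -2.62. Nanog, a core pluripotency factor, fell by 6.43 ± 0.48, 7.23 ± 0.48 and 4.21 ± 0.48, and Pou5f1 by 5.44, 5.38 and 2.81. By day 5 Pou5f1 had fallen by 2.61 and 2.65 in R1 and 3F and was at -0.38 ± 0.52 in 4F (adjusted p = 0.673). At day 11, 9 of the 12 were higher in 4F than in each of the other lines, where 2.39% of all genes were higher than in R1 and 5.12% than in 3F. Of 7 markers of the primed epiblast, 4 rose by day 5 in 4F (2.25% of all genes rose there). In R1 1 rose and 2 fell (6.62% of all genes rose and 8.1% fell), and in 3F 1 rose and 3 fell (5.04% rose and 7.4% fell). Fgf5 was lower in 4F than in R1 at day 0, by 3.06 ± 0.67 (adjusted p = 0.0134), and 2.46 ± 0.67 higher in 4F than in 3F at day 5 (adjusted p = 0.0128).

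Markers of the cell types that the bodies could hold moved in different amounts in the lines. Of 10 cardiomyocyte markers, 8 rose by day 11 in R1, 8 in 3F and 2 in 4F, with medians of 2.43, 2.23 and 0.54. Of 6 endothelial markers, 4, 5 and 1 rose, and in 4F 1 fell, Tek at -1.56 (adjusted p = 0.0324). Of 6 erythroid markers, 3, 4 and 2 rose. Over all genes 11.4%, 7.55% and 6.72% rose. Visceral endoderm markers rose in similar number, 4, 5 and 4 of 6, and in R1 1 fell, Amn at -1.15 (limma adjusted p = 0.014). At day 11 Amn and Apob were higher in 4F than in R1, by 2 and 2.31, and Afp was lower, at -1.16. Of 5 immune markers, 3 rose in R1, while 2 fell in 3F and 2 fell in 4F. Of the 12 fibroblast and feeder markers, 9, 11 and 12 fell by day 5, where 8.1%, 7.4% and 4.82% of all genes fell. From day 0 to day 11 7, 5 and 3 of them rose and 4, 5 and 6 fell, where 12.2%, 16% and 14.1% of all genes fell. Thus the day 0 levels of the methylation genes were measured beside feeder cell RNA, and the part of feeder cells or of the new cell types in their changes was not tested.

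Over the 9 group means, the correlations among the 8 genes can only be described, since groups of a line share their source. Dnmt3b and Uhrf1 correlated at r = 0.95, and so did Dnmt3l and Tet1. Dnmt3b and Dnmt3l were at 0.81, and Uhrf1 and Dnmt3l at 0.74. Tet1 was at 0.84 with Dnmt3b and 0.82 with Uhrf1, and Dnmt3a was at 0.68 to 0.79 with these genes, so they did not part into separate sets. Dnmt1 was at 0.55 or less with every other member. Among 9062 other genes whose group means spanned at least 1 log2 unit, the 3 most like Dnmt3b were Cyb561 (r = 0.993), Nol9 (0.989) and Bend3 (0.988). Those most like Uhrf1 were Vangl2 (0.994), Tmem209 (0.992) and Esf1 (0.991). For Dnmt3l they were Sh3gl2 (0.993), Pla2g1b (0.991) and Capsl (0.989), and for Tet1 they were Cdkl2 (0.993), Zcchc4 (0.987) and Rpl7l1 (0.986). For Dnmt3a, by its brightest probe set, they were Pla2g12a (0.982), Ankrd9 (0.972) and Tnfrsf1b (0.968), and for Tet2 Mitf (0.954), Bcl3 (0.95) and Tnip2 (0.948).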

How the data were processed

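RNA of 3 mouse lines at 3 days, with 3 biological replicates each, was measured on 27 Affymetrix arrays. The authors deposited log2 values made with RMA, per the submitters' processing notes, whose version is not given in the sources used here. They were used as deposited. The lowest was 3, the highest 15.67, and medians of arrays lay between 5.91 and 6.1. Arrays give no read depth, and their number limits the precision: the SD of differences between replicates had a median of 0.315 over replicate pairs (0.183 to 0.702).

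Of 45101 probe sets, 64 were controls, 34945 had 1 gene symbol in the platform annotation, 932 had several and 9160 had none. The probe set with the highest mean over all arrays stood for each of 18193 genes. limma 3.58.1 (R 4.3.3) was fitted to all 9 groups, without a replicate block, with Benjamini-Hochberg adjustment over all genes in each of 24 comparisons: 18 between groups and 6 between changes. A call needed an adjusted p under 0.05 and 2-fold. The fit was tested on simulated data. Figures were drawn with matplotlib 3.10.9 under Python 3.11.15, from tables read with pandas 2.3.3 and numpy 2.4.6.

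The labels state no pairing of samples by replicate number. In 3 of the 18 comparisons the deviations of all samples of the same number correlated above 0.1, which cannot establish pairing. These were 4F day 11 against day 5 (0.129, 0.105 and 0.152), 4F against R1 at day 0 (0.48, 0.252 and 0.328) and 3F against R1 at day 11 (0.12, 0.492 and 0.392). The block changed no member count there.

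The members, gene lists, promoter windows and motifs were chosen with earlier results of these data known. The text names the 8 members, their other probe sets whose call or sign differed, up to 3 genes of a list with the largest called change, Hells, Dppa3, Tdg, Zfp57, Prdm14, Pcna, Pou5f1, Nanog and Fgf5, and the 3 genes most alike to a member. All 20 member probe sets matched RefSeq by gene identifier. Alternatives covered scaling, a filter on dim genes (14702 kept), probe set choice, thresholds, array weights, the block, an RNA quality covariate and leaving out arrays.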

Additional observations from a re-analysis of the deposited data

Results flagged for a closer look

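Changes that differed between lines by the interaction term of the limma fit over all genes concerned Dnmt3l and Dnmt3b. The change of Dnmt3l to day 5 was 3.46 ± 0.6 higher in 4F than in 3F (adjusted p = 0.00168), and this call held in all 26 alternatives run for it. The same change was 2.15 ± 0.6 higher in 4F than in R1 (adjusted p = 0.0425) and held in 14 of 26. The change of Dnmt3l to day 11 was 1.9 ± 0.6 higher in 4F than in 3F (adjusted p = 0.0482) and held in 11 of 26, and that of Dnmt3b was 1.54 ± 0.46 higher (adjusted p = 0.0376) and held in 13 of 26. These comparisons share the 4F arrays.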

How the results depend on the processing

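Of 4128 values of the 8 genes under alternatives, 3971 kept their side of the threshold, 76 lost a call, 80 gained one and 1 called fall changed sign. In that case Dnmt3a was at 0.19 in R1 from day 0 to day 11 with the mean of its probe sets. Values without a call that changed sign are among the 3971. Within lines, counts that moved less hid exchanges. Cyclic loess lost Dnmt3a in R1 to day 11 (-0.84) and Dnmt3l in 3F from day 5 to day 11 (-1.04) and added Dnmt3b in 4F by day 5 (1.05). The mean of probe sets lost Dnmt3a in R1 and 4F and Tet1 in R1 and 3F (day 5 to day 11), and added Tet2 as a rise from day 5 to day 11 in each line. A variance trend with robust fitting changed 0 of 192 values. The median of all genes in 4F from day 5 to day 11 was -0.15 as deposited, -0.25 after median centring and -0.02 after cyclic loess. Counts of members called that moved by over 1.5 times are given here, as 4F against R1 unless another pair is named. No share of all genes under the same setting is set beside these counts. Median centring gave 1 in the change to day 11 (4F against 3F). Cyclic loess gave 2 at day 11, 2 in the change to day 5 (4F against 3F) and 1 in the change to day 11. Quantile normalization gave 1 at day 11 and 2 in the change to day 5 (both 4F against 3F) and 1 in the change to day 11. Leaving out dim genes gave 2 at day 11 and 1 against 3F. The mean of probe sets gave 1 at day 5, 1 against 3F at day 5, 0 at day 11, 1 against 3F at day 11 and 2 in the change to day 5 against 3F. Testing all probe sets gave 0 in the change to day 5 and 1 in the change to day 11 against 3F. No fold minimum gave 2 at day 11 against 3F, and an adjusted p under 0.01 gave 0 in the change to day 5 and 0 in the change to day 11 against 3F. Only the arrays compared gave 1 at day 5, 2 at day 11, 0 in the change to day 5 and 2 in that against 3F. Array weights gave 2 at day 0, 1 at day 5 for 3F against R1, 2 at day 11, 1, 3 and 2 in the change to day 5 (3F against R1, 4F against R1 and 4F against 3F) and 4 in the change to day 11. The RNA covariate gave 2 in 4F from day 5 to day 11, 2 from day 0 to day 11, 2 at day 11, 1 against 3F at day 11 and 0 in the change to day 11 against 3F. The replicate block gave 2 at day 11, 1 against 3F at day 11 and 2 in the change to day 5 against 3F, since Dnmt3l passed at day 11 (1.14 and 1.09, limma adjusted p 0.016 and 0.0177) and Dnmt3b in that change (1.5). The labels state no pairing by replicate number. Leaving out the 3 arrays farthest from their groups, chosen after seeing the data, gave 1 for 3F against R1 at day 0, 2 at day 0, 2 at day 11, 1 against 3F at day 11, 2 and 2 in the change to day 5 against R1 and 3F, and 2 and 1 in the change to day 11. Leaving out 1 array gave 2 to 4 in R1 from day 0 to day 5, 0 to 2 at day 0, 1 to 3 at day 5, 1 to 2 against 3F at day 5, 0 to 1 at day 11, 0 to 2 against 3F at day 11, 0 to 2 and 1 to 2 in the change to day 5 against R1 and 3F, and 0 to 1 in the change to day 11 for each pair. The causes were not tested.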
